A study of Mus musculus with 3 samples.

Results

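The enzymes of glycolysis, the kinases that set its rate and its outlet, and a group of genes induced by low oxygen were examined in sorted kidney endothelium of the mouse embryo. The set held 36 genes named by symbol, and 33 of them had a probe set whose platform annotation gives exactly 1 gene symbol. These 33 genes had 40 probe sets, out of 35557 in the table, and were part of 19938 named genes. Gpi1, Eno1 and Pfkfb1 had no such probe set and were not analysed here.

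The series holds a single group of 3 arrays, called arrays 1, 2 and 3. Each array carried RNA from Tie2-GFP cells of a pool of 4 to 5 embryonic kidneys at 15.5 dpc, taken from CD-1 mice carrying Tg(TIE2GFP)287Sato, released with trypsin and sorted by fluorescence. Expression of GFP is driven by the promoter of Tek, so the sort follows that promoter and not endothelial identity as such, and the labels name the source as small blood vessels. With a single group no condition could be compared, and the study describes the samples of each of its cell types as biologically independent, while the labels do not state whether separate litters gave the pools. A p-value here covers only how far these arrays spread.

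Glycolysis splits glucose into pyruvate in the cytosol, and lactate dehydrogenase can turn pyruvate into lactate so that the pathway keeps running. Endothelial cells are known to draw much of their ATP from this route although they line vessels that carry oxygen. Under low oxygen the hypoxia-inducible factors, whose alpha subunits are then spared from degradation, bind short response elements in the DNA and raise transcription of many glycolytic enzymes, of pyruvate dehydrogenase kinases and of genes such as Bnip3, Car9 and Ndrg1. Many steps have several isoforms that differ between tissues, and the isoforms of each step are therefore given side by side.

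Values are the deposited log2 expression values. Each probe set was tested with limma against 100 on the raw scale (6.64 log2), the value of the study's low-signal filter. That filter required single samples to reach 100, while the test here was on the mean of the arrays. A gene is called above or below this level on the adjusted p. Above the level lay 17 of 33 genes (51.5%), beside 41.6% of all named genes. Below it lay 7 genes (21.2%), beside 41.6% of all named genes, and 9 genes were on neither side. The median over the 33 genes was 6.89 log2, against 6.67 log2 over all named genes.

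Many values in the table are exactly equal between arrays, and the calls depend on how the spread is estimated. Arrays 1 and 2 held the same value for 21 of the 40 probe sets (50.6% of all probe sets), and all 3 arrays did for 10 of the 40 (19.7% of all probe sets). With a single SD of 0.49 log2 pooled over the whole table, called the pooled spread below, 11 of 33 genes were above the level (33.3%, beside 36% of all named genes) and 6 were below (18.2%, beside 32.5%). Above by both estimates were 10 genes, and below by both were 6. The 10 include Hk1, whose limma call rests on a probe set of doubtful annotation, described below. The share of all named genes called by both estimates was not counted. It cannot exceed the pooled shares of 36% above and 32.5% below. Since 15 of the 33 means lay within 0.5 log2 of the level, against 27.3% of all named genes, the calls of these genes rest on small distances.

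**Figure D1:**
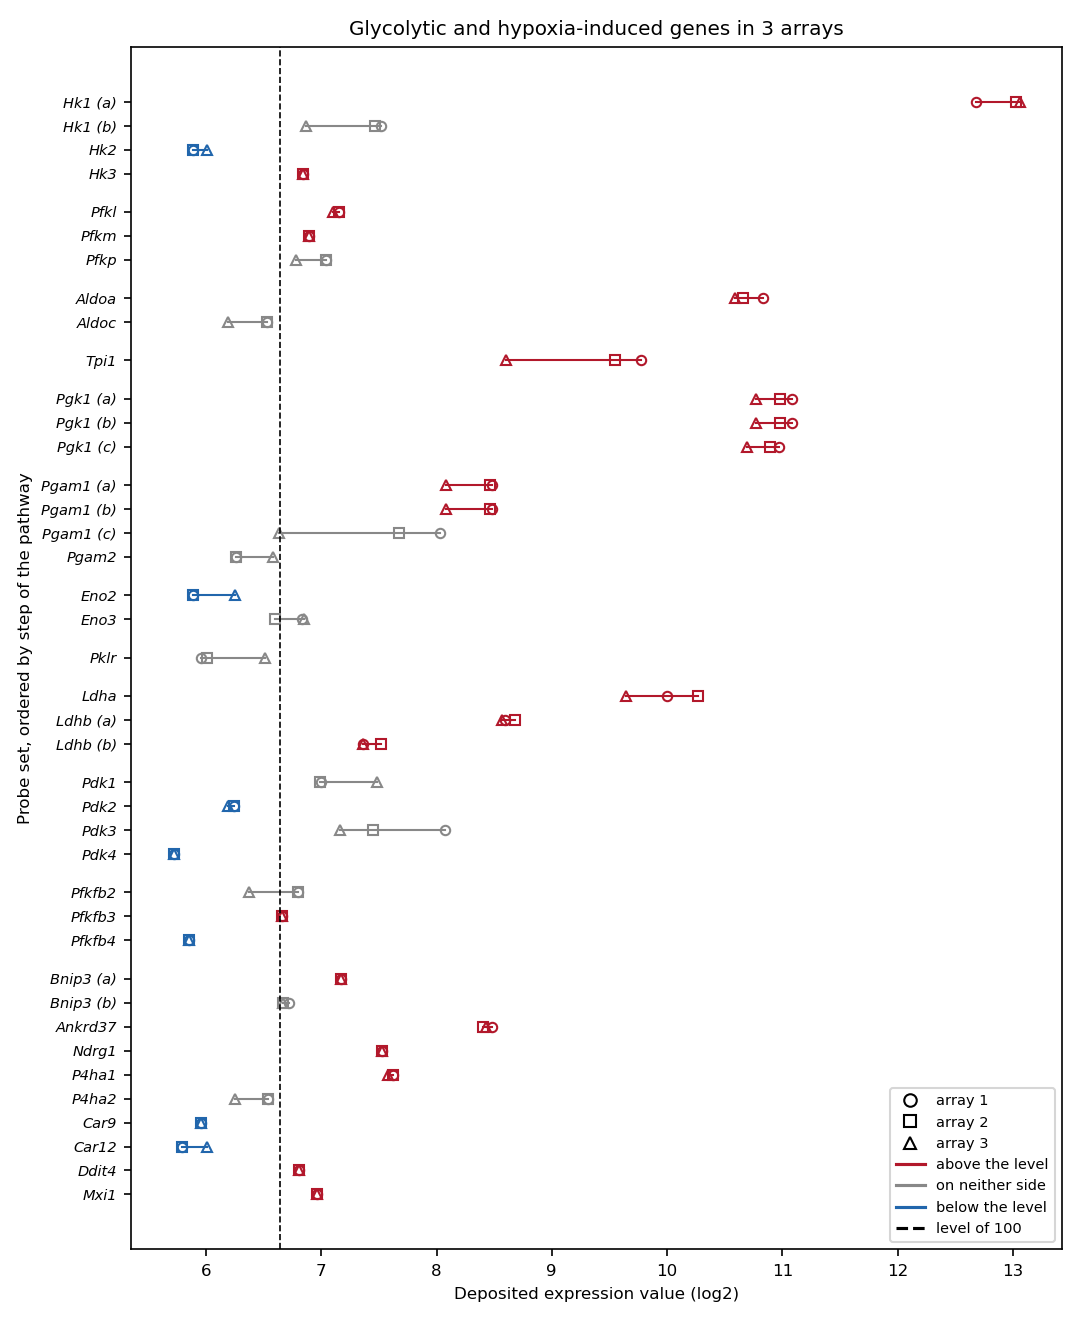
Deposited log2 values (horizontal axis) of the 40 probe sets of the 33 measured genes, with 1 symbol per array, a line over their range, and colour for the limma call against the level of 100 (dashed line at 6.64). Aldoa, Pgk1, Ldha and 1 Hk1 probe set have all symbols at 9.64 or more, while most other probe sets lie close to the level.

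Hexokinases commit glucose to the cell by phosphorylating it. Hk1, the widely expressed isoform, had 2 probe sets that disagreed. The first had values of 12.68, 13.03 and 13.06 in arrays 1, 2 and 3 (12.93 ± 0.21, SD, n = 3; adjusted p = 0.000344). The second had values of 7.52, 7.47 and 6.87 (7.28 ± 0.36) and did not pass (adjusted p = 0.0796, or 0.0361 with the pooled spread). The annotation of the first rests on 1 transcript accession that also stands in 16 probe sets listing Hk1 together with Rpl17, a ribosomal protein gene, and the means of those 16 ran from 12.22 to 13.24. Whether the first probe set measured Hk1 was not tested. Without it Hk1 was on neither side and 16 genes were above the level.

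Hk2, the isoform of muscle and fat that hypoxia-inducible factor raises, was below the level with values of 5.89, 5.89 and 6.01 (5.93 ± 0.07; adjusted p = 0.00266), and it stayed below with the pooled spread (adjusted p = 0.017). Hk3, known from leukocytes, was at 6.84 in all 3 arrays and was called above the level (adjusted p = 0.000419), a call lost with the pooled spread (adjusted p = 0.58).

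Phosphofructokinase carries out the committed step, and its subunits are named for liver, muscle and platelet. Pfkl had values of 7.15, 7.15 and 7.10 (7.13 ± 0.03; adjusted p = 0.000992) and was above the level. Pfkm was at 6.89 in every array and was above it too (adjusted p = 0.000278). Pfkp, at 7.04, 7.04 and 6.78 (6.95 ± 0.15), did not pass (adjusted p = 0.0578). The 3 subunits thus lay within a narrow band over the level in all arrays. With the pooled spread the calls of Pfkl (adjusted p = 0.119) and Pfkm (adjusted p = 0.477) were lost.

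Among the aldolases, which cleave the hexose into trioses, Aldoa stood far over the level. This isoform of muscle and most other tissues had values of 10.83, 10.66 and 10.59 (10.69 ± 0.13; adjusted p = 0.000306). Aldoc, the brain isoform, had values of 6.53, 6.53 and 6.19 (6.42 ± 0.20) and was on neither side. The lowest Aldoa value was thus over 10 log2, and all Aldoc values were under the level.

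Tpi1, which interconverts the trioses and has no isoform in the set, had values of 9.77, 9.55 and 8.60 (9.31 ± 0.62; adjusted p = 0.0143) and had the largest SD of the 33 gene means. It was above the level, but not when array 1 or array 2 was left out, although its mean then still lay 2.43 and 2.54 log2 over the level (adjusted p = 0.0926 and 0.112).

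Pgk1, which makes the first ATP of the pathway, had the highest mean of the set apart from the first Hk1 probe set. Of its 3 probe sets, a pair had the same values of 11.08, 10.98 and 10.77 (10.94 ± 0.16; adjusted p = 0.000415), and the other had 10.97, 10.89 and 10.69 (10.85 ± 0.15; adjusted p = 0.00038). Ldha, the subunit of lactate dehydrogenase that favours lactate formation, had values of 10.00, 10.27 and 9.64 (9.97 ± 0.31; adjusted p = 0.00249). Both are textbook targets of hypoxia-inducible factor, and their proximal promoters are shown with the core letters of the hypoxia response element, ACGTG or GCGTG on either strand, in capitals. The windows reach from 250 bases before to 50 bases after the annotated start site, run 5′ to 3′ along the gene and come from RefSeq, build GRCm38.p6. That of Pgk1 is chrX:106186850-106187149 on the plus strand. That of Ldha is the first of its 2 windows, chr7:46845554-46845853 on the plus strand.
Pgk1: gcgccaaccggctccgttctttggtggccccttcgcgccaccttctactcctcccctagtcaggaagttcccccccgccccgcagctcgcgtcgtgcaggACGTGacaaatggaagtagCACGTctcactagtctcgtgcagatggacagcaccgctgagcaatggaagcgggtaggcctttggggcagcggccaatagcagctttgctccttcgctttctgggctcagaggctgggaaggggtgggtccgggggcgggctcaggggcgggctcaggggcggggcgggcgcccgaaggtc
Ldha: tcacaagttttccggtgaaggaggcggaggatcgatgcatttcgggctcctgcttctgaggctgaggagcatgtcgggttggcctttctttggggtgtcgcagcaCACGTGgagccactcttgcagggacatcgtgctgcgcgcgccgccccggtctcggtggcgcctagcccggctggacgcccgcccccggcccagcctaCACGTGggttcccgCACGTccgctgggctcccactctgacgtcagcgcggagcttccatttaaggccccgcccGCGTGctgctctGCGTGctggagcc

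In the Pgk1 window the 2 cores face each other, with their first letters 150 and 131 bases before the start site. The Ldha window held 7 cores, the most of any window of the set. In it CACGTG occurs at 2 places, and each reads as a core on both strands, so the pair counts for 4 of the 7. The others begin 34 bases before and 26 and 38 bases after the start.

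Phosphoglycerate mutase moves the phosphate group before enolase acts. Pgam1, the isoform of brain and most tissues, had a pair of probe sets with the same values, 8.48, 8.46 and 8.08 (8.34 ± 0.23; adjusted p = 0.00492). A further Pgam1 probe set had 8.03, 7.67 and 6.63 (7.44 ± 0.73) and did not pass (adjusted p = 0.182). Without array 1 or array 2 the paired probe sets, 1.63 and 1.64 log2 over the level, did not pass either (adjusted p = 0.0561 and 0.0606). Pgam2, the muscle isoform, had values of 6.26, 6.26 and 6.58 (6.37 ± 0.19), all under the level, and was on neither side.

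Of the enolases, Eno2, the neuronal isoform, was below the level with values of 5.89, 5.89 and 6.25 (6.01 ± 0.21; adjusted p = 0.0245), and this call was lost without array 1 or array 2 (adjusted p = 0.135 for each), with the mean then at -0.57 log2 relative to the level. Eno3, the muscle isoform, had values of 6.83, 6.60 and 6.85 (6.76 ± 0.14) on both sides of the level. Pklr, the pyruvate kinase of liver and red cells, had values of 5.96, 6.01 and 6.51 (6.16 ± 0.30) and was on neither side (adjusted p = 0.0849). Pkm, the pyruvate kinase of muscle and most other tissues, is not in the set but belongs beside Pklr. It was above the level with values of 9.75, 9.51 and 9.36 (9.54 ± 0.20).

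Ldhb, the subunit that favours pyruvate, was above the level in both of its probe sets. The first had values of 8.59, 8.68 and 8.57 (8.62 ± 0.06; adjusted p = 0.000266), and the second had 7.36, 7.52 and 7.36 (7.41 ± 0.10; adjusted p = 0.00439). Both lactate dehydrogenase subunits were thus above the level.

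Over the steps, 10 of 17 measured enzymes were above the level (58.8%) and 2 were below (11.8%), beside 41.6% of all named genes each way. With the pooled spread 7 were above and 2 below, beside 36% and 32.5% of all named genes. The 10 include Hk1, which was on neither side by limma without its first probe set. The enzymes with means of at least 9 log2 were Aldoa, Tpi1, Pgk1 and Ldha. Hk1 joined them only as the mean of its 2 probe sets, which were at 12.93 and 7.28 log2, the first with the doubtful annotation. Aldoc, Pgam2, Eno2, Eno3 and Pklr, isoforms known from brain, muscle, liver or red cells, were not above the level by limma, also at an unadjusted p under 0.05, whereas Pfkl and Pfkm, named for liver and muscle, were. The difference between isoforms of a step was not tested, because probe sets differ in affinity.

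Pyruvate dehydrogenase kinases switch off the entry of pyruvate into the citric acid cycle. Pdk1, the kinase best known as induced by hypoxia, had values of 7.0, 6.99 and 7.48 (7.16 ± 0.28; adjusted p = 0.0725). Pdk3 had values of 8.07, 7.45 and 7.16 (7.56 ± 0.46; adjusted p = 0.065). Both lay over the level in all 3 arrays and passed in the limma fit only at an unadjusted p (0.0271 and 0.024), and Pdk3 passed with the pooled spread (adjusted p = 0.00224). Pdk2, at 6.24, 6.24 and 6.19 (6.23 ± 0.03; adjusted p = 0.00175), was below the level, but not with the pooled spread (adjusted p = 0.164). Pdk4, the kinase raised by fasting, was at 5.72 in each array and was below it by both (adjusted p = 2.23e-05, or 0.0019 with the pooled spread). The 4 kinases thus split, with Pdk1 and Pdk3 over the level in all arrays and Pdk2 and Pdk4 under it.

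The bifunctional PFKFB enzymes make and remove fructose 2,6-bisphosphate, the strongest activator of phosphofructokinase. Pfkfb3, the isoform studied most in sprouting endothelium, was at 6.66 in all 3 arrays, only 0.02 log2 over the level. It was called above (adjusted p = 0.0401) with a spread of 0 between arrays, and the call was lost with the pooled spread and without array 1 or array 2 (adjusted p = 0.236 and 0.29, still 0.02 log2 over). Pfkfb2, the heart isoform, had values of 6.80, 6.80 and 6.37 (6.66 ± 0.25) on both sides of the level. Pfkfb4, at 5.85 in every array, was below it by both estimates (adjusted p = 2.75e-05, or 0.0076 with the pooled spread). Of the 7 measured kinases of both families, 1 was above (14.3%) and 3 were below (42.9%), beside 41.6% of all named genes each way.

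Among the 9 genes induced by hypoxia outside glycolysis, 6 were above the level (66.7%) and 2 below (22.2%), beside 41.6% of all named genes each way. With the pooled spread 3 were above and 2 below, beside 36% and 32.5% of all named genes. Ankrd37, an ankyrin repeat protein gene, had the highest values of these, 8.48, 8.40 and 8.43 (8.44 ± 0.04; adjusted p = 0.000158). P4ha1, a catalytic subunit of collagen prolyl 4-hydroxylase, had values of 7.62, 7.62 and 7.58 (7.61 ± 0.02; adjusted p = 0.000226). Ndrg1, a stress-response gene, was at 7.53 in every array (adjusted p = 3.03e-05). These 3 genes were above the level by both estimates.

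Bnip3, a receptor for mitochondrial autophagy, had 2 probe sets. The first was at 7.17 in all arrays (adjusted p = 6.76e-05, or 0.087 with the pooled spread), and the second had values of 6.72, 6.67 and 6.67 (6.69 ± 0.03) and did not pass (adjusted p = 0.113). Ddit4, an inhibitor of mTORC1, was at 6.81 in each array (adjusted p = 0.000572), and Mxi1, a partner of Max that opposes Myc, was at 6.96 in each (adjusted p = 0.000174). The calls of both were lost with the pooled spread (adjusted p = 0.651 for Ddit4 and 0.343 for Mxi1).

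The carbonic anhydrases of the cell surface were both low. Car9, which exports acid in hypoxic tumour cells and is among the most hypoxia-dependent genes known there, was at 5.96 in every array and below the level (adjusted p = 3.5e-05). Car12 had values of 5.79, 5.79 and 6.01 (5.86 ± 0.12; adjusted p = 0.00624) and was below it too, although not without array 1 or array 2 (adjusted p = 0.0638 and 0.064, with the mean then at -0.75 log2 relative to the level). P4ha2, the other prolyl hydroxylase subunit of the set, had values of 6.54, 6.54 and 6.25 (6.44 ± 0.17), all under the level, and did not pass.

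The promoter windows of 3 genes called above the level and of Car9, called below it, are printed to show how the core letters are spread, not as a contrast between the calls. That of Bnip3 is chr7:138909457-138909756 on the minus strand, that of Ankrd37 is chr8:45999801-46000100 on the minus strand, that of P4ha1 is chr10:59323046-59323345 on the plus strand, and that of Car9 is chr4:43506776-43507075 on the plus strand. Capitals mark the core letters as before, and the build is GRCm38.p6.
Bnip3: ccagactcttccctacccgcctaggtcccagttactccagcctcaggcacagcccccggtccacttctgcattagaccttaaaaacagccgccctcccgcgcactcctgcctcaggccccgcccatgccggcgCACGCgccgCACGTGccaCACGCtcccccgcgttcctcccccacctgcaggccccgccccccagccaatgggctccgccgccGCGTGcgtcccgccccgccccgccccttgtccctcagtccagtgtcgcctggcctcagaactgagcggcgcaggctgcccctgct
Ankrd37: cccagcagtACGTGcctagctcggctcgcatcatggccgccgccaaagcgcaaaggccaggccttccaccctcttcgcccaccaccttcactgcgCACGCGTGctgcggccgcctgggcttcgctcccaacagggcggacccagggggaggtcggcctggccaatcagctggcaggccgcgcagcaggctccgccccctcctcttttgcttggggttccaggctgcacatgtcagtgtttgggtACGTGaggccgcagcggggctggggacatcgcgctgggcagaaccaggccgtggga
P4ha1: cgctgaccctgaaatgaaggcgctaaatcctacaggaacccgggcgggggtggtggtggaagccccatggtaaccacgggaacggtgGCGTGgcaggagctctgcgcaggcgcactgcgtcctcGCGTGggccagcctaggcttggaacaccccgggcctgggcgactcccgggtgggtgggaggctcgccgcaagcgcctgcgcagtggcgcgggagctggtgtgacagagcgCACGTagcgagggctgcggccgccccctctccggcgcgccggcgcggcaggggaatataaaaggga
Car9: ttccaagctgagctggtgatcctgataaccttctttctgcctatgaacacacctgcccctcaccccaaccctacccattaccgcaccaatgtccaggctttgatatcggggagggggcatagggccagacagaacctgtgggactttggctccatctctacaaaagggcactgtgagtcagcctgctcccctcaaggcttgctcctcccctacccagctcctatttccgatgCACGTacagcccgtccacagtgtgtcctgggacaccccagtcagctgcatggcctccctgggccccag

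The Bnip3 window held 5 cores, 4 of them within a short stretch that begins 117 bases before the start and includes CACGTG, which counts on both strands. Ankrd37 held 4 cores, and a pair of them overlaps in the run of capitals that begins 155 bases before the start. P4ha1 held 3 cores, and Car9 held 1, which begins 18 bases before the start. Other genes of the class did not keep this order, since P4ha2, on neither side, held 4 cores, while Ddit4 and Mxi1, both above the level, held 2 and at most 1 in a window.

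Over the set, 40 of 56 windows held a core (71.4%), beside 43.8% of 32851 windows of all promoters. At least 3 cores stood in 13 of the 56 windows (23.2%), beside 8.93% of all windows. By call, 21 of 26 windows of genes above the level held a core (80.8%), beside 63.5% for all named genes above it. For genes on neither side it was 10 of 14 windows (71.4%), beside 51.5%, and for genes below the level 5 of 8 windows (62.5%), beside 38.6% for all named genes below it. At least 3 cores stood in 30.8% of the windows of genes above the level, beside 16.9% for all named genes above it. On neither side it was 35.7%, beside 11.1%. Below the level it was 0 of 8 windows, beside 7.19% for all named genes below it. With 8 windows these last shares cannot be told apart. Tpi1, with a mean of 9.31 log2, had no core in its window, while Hk2, below the level, had 2. The search covered 35 of the 36 genes, including those without a probe set, and Ndrg1 had no entry. A match describes the letters only.

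**Figure D2:**
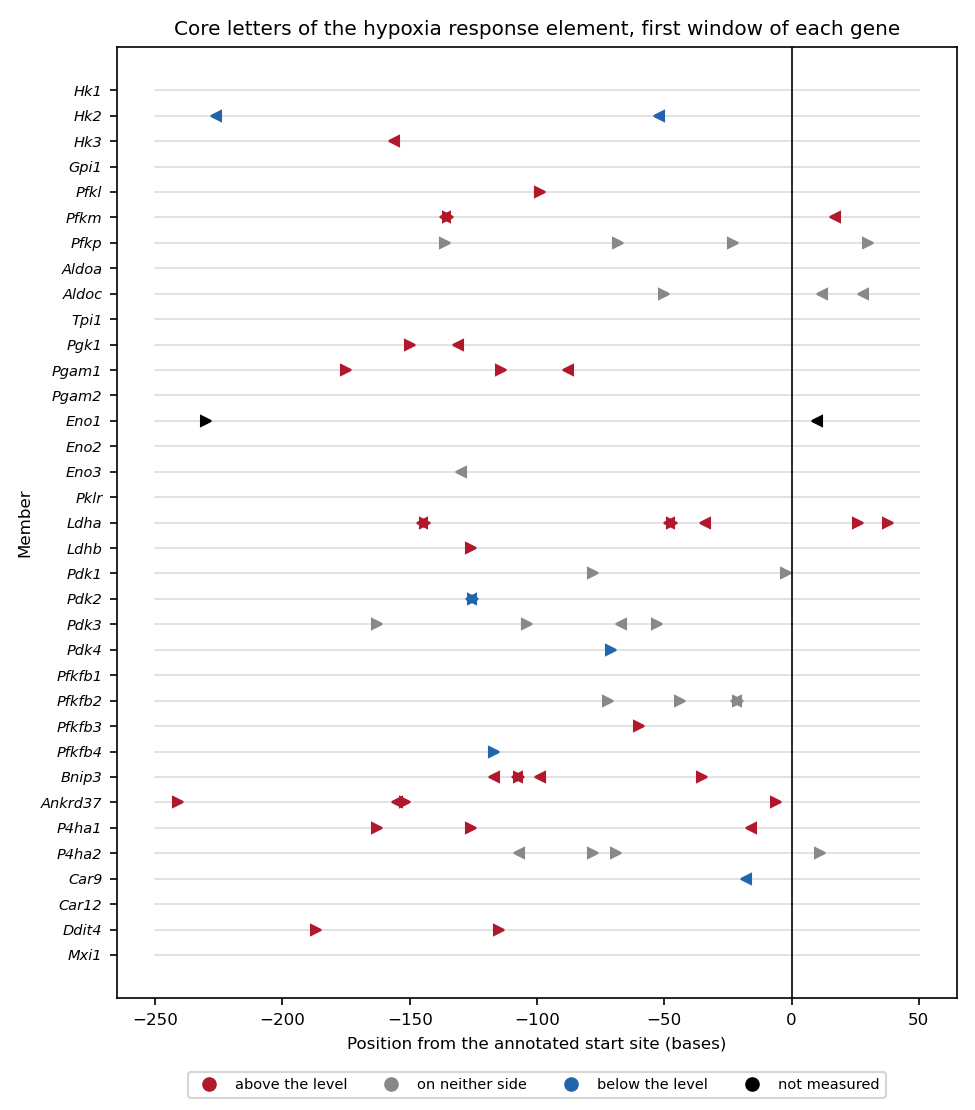
Positions of the core letters ACGTG and GCGTG (triangles, pointing right on the gene's own strand and left on the other) in the first RefSeq window of each of 35 genes, as distance in bases from the annotated start site, coloured by the call. Ldha holds 7 and Bnip3 holds 5, and genes without a core in the first window, such as Hk1 and Aldoa, may hold one in another of their windows.

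Related pathways were read from lists of other genes. Every list count that follows stands beside 41.6% above and 41.6% below over all named genes. With the pooled spread these shares were 36% and 32.5%. Of 11 other glycolytic genes measured, 4 were above the level and 6 below (3 and 4 with the pooled spread), with a median of 6.43 log2. Above were Pkm, Bpgm, the red cell mutase (7.86 log2), Minpp1, an inositol phosphate phosphatase (7.85 ± 0.11 log2), and Adpgk, an enzyme that phosphorylates glucose with ADP (7.03 ± 0.04 log2). Hkdc1 (6.05 ± 0.10 log2) and the testis isoform Gapdhs (6.43 log2) were below. Gapdh had no probe set of a single symbol and was not analysed here.

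The genes that carry pyruvate into the mitochondrion and oxidise it gave the largest share above the level of these lists, 8 of 10 against 1 below, by both estimates, with a median of 8.12 log2. Pdha1 and Pdhb, subunits of the first enzyme of pyruvate dehydrogenase, had means of 8.77 ± 0.23 and 8.22 ± 0.00 log2. The testis subunit Pdha2 was at 4.82 log2 and below the level.

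In the pentose phosphate pathway, which branches from glucose 6-phosphate and supplies NADPH and ribose, 6 of 9 genes were above and 2 below (5 and 2 with the pooled spread). Pgls was at 8.74 log2 in each array and H6pd at 6.82 ± 0.02 log2. Pgd, with values of 8.84, 8.50 and 7.27, was on neither side, and Tktl1 (5.49 ± 0.01 log2) and Tktl2 (4.79 log2) were below. Of 8 gluconeogenesis genes 2 were above, Pck2 (7.45 log2) and G6pc3 (7.71 ± 0.23 log2), and 6 were below (2 and 2 with the pooled spread), among them Pck1 (6.30 log2) and Fbp1 (5.05 ± 0.44 log2).

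Of 10 genes of glycogen metabolism, 6 were above and 3 below (5 and 2 with the pooled spread). Ugp2, which makes UDP-glucose, was at 8.58 log2 in each array, and the phosphoglucomutases Pgm2 and Pgm1 had means of 9.02 ± 0.48 and 6.86 ± 0.01 log2. The liver synthase Gys2 (5.05 ± 0.21 log2) and the phosphorylases of liver, Pygl (6.0 log2), and muscle, Pygm (6.37 log2), were below.

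The hypoxia pathway itself was measured through further lists. Among 23 other genes known to be induced by hypoxia, 15 passed above the level and 3 below it (15 and 2 with the pooled spread), with a median of 7.58 log2. Vegfa, the main endothelial growth factor, was at 7.58 log2 in every array, and Egln3, a prolyl hydroxylase that acts on the alpha subunits, had values of 10.58, 10.29 and 9.03. Adm (6.38 ± 0.11 log2), Bhlhe40 (5.87 ± 0.13 log2) and the collagen cross-linking enzyme Lox (5.28 log2) were below. The glucose transporter gene Slc2a1, chosen after its values were seen, had 8.36, 8.36 and 6.53 and was on neither side.

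Of 10 genes of the factors and their regulators, which share Egln3 with that list, 7 were above and 2 below (6 and 0 with the pooled spread). The alpha subunit genes Hif1a (9.82, 9.66 and 8.07) and Epas1 (9.08, 8.73 and 7.68) were above, with the lowest values in array 3. Hif3a (6.31 log2) and the asparagine hydroxylase gene Hif1an (6.18 ± 0.07 log2) were below the level. Of 20 relatives of the hypoxia-induced genes, 15 were above and 3 below (9 and 1 with the pooled spread). Bnip2 (11.14 ± 0.17 log2), Bnip3l (10.17 ± 0.56 log2) and Bnip1 (7.21 ± 0.12 log2) were above, and P4ha3 (6.21 ± 0.04 log2), Car4 (5.92 ± 0.07 log2) and Car14 (6.60 log2) were below.

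**Figure D3:**
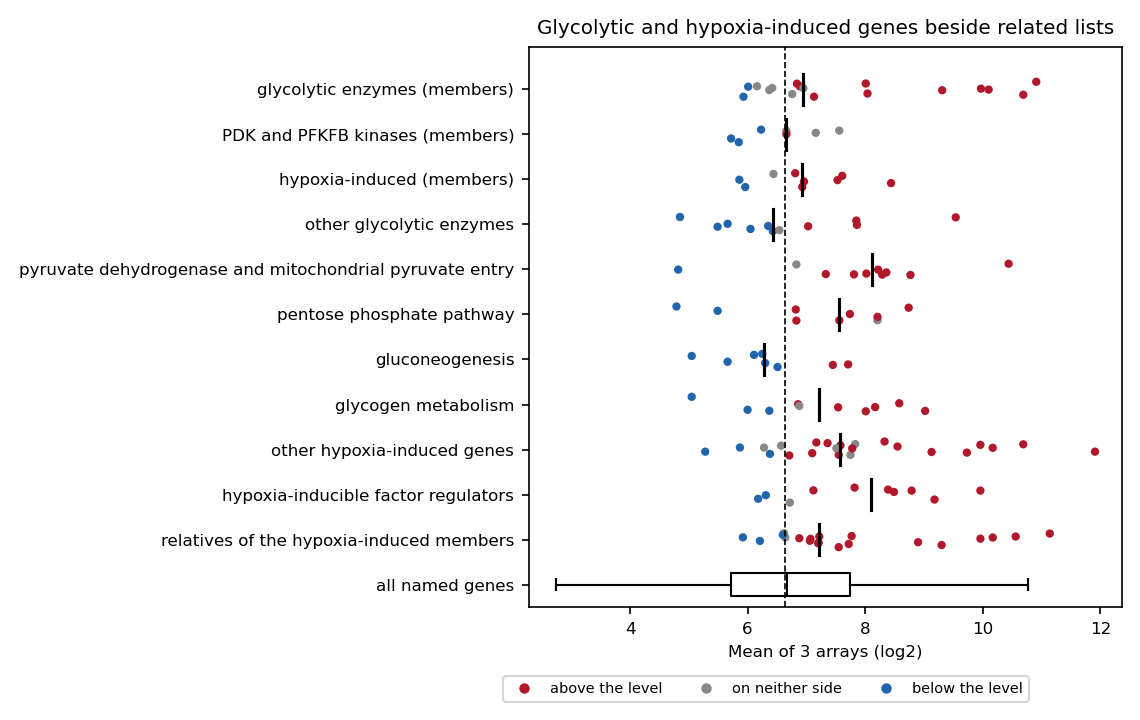
Mean log2 value over 3 arrays (horizontal axis) of each gene in the 3 classes of the set and in the related lists, coloured by call, with a black bar at the median, the dashed line at the level of 6.64, and a box for all named genes (quartiles, with whiskers to the farthest gene within 1.5 times the box length). The pyruvate dehydrogenase list has its median at 8.12 and the gluconeogenesis list at 6.28.

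The arrays differed from each other, and array 3 stood apart. Over all probe sets the SD was 2.08, 2.06 and 1.84 log2 in arrays 1, 2 and 3. Of 10 endothelial markers, 8 were above the level (10 with the pooled spread), among them Cdh5 (11.57, 11.23 and 10.43). All 10 were lower in array 3 than the mean of the other arrays (median difference -1.0 log2). The summed linear level of these markers was 15803, 13702 and 7719. Of 12 macrophage markers, 1 was above the level (6 with the pooled spread), 11 were higher in array 3, and the sum was 1188, 2824 and 4608. None of the markers of either list was at 0, but this cannot show that each was detected. The lowest mean over all named genes was 2.74 log2, so no named gene had a mean of 0. In sorted bulk samples, fewer cells of a type and less RNA per cell cannot be told apart. Array 3 also held a narrower range of values, and 929 of the 1194 receptor genes were higher in it (median difference 0.30 log2). Of all 19938 named genes 8207 were higher in array 3 and 6617 were lower. Of named genes with a mean under 6 log2, 70.4% were higher, and of those at 8 log2 or more, 76.5% were lower. The part of this narrower range in the marker differences was not tested.

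The shift of the set between arrays was not tested against that of the marker lists, whose levels differ from it. Array 3 minus the mean of arrays 1 and 2 was below 0 for 17 of the 33 genes, above 0 for 7 and equal to 0 for 9. Of all 19938 named genes it was below 0 for 6617, above 0 for 8207 and equal to 0 for 5114. The median was -0.01 log2 for the set, against 0.00 log2 for all named genes. Across the 33 genes, Pearson's r was 0.996 for array 1 with array 2, 0.975 for array 1 with array 3 and 0.981 for array 2 with array 3, a description over genes that share their arrays. Apart from Hk1, all 7 genes of the set with a mean of at least 8 log2 were lower in array 3 (median -0.25 log2). The Hk1 probe sets moved in opposite ways, with 0.21 log2 for the first, which lies over 8 log2, and -0.63 log2 for the second. Of 4138 named genes at that level 76.5% were lower (median -0.31 log2), so a lower value in array 3 was common at this level.

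Tpi1 differed most, at -1.05 log2 in array 3 relative to the mean of arrays 1 and 2, and then Pgam1 at -0.67, Pdk3 at -0.60 and Ldha at -0.49. The largest rises in array 3 were those of Pklr at 0.53 and Pdk1 at 0.48 log2, followed by Eno2 at 0.36 and Pgam2 at 0.32 log2. Of named genes with a mean from 6 to 7 log2, as Pklr has, 44.2% were higher in array 3 and 18.7% lower. From 7 to 8 log2, where Pdk1 lies, 20.4% were higher and 53.6% lower. Hk3, the leukocyte hexokinase, was at 6.84 log2 in every array, and 19.7% of all probe sets likewise held equal values in all 3 arrays. A tied value so near the level cannot show whether Hk3 follows the macrophage markers. Pklr is a red cell gene. Of 9 erythroid markers 3 were above and 5 below the level (2 and 5 with the pooled spread), with sums of 1004, 1423 and 1405. Hbb-y, chosen after its values were seen, had the highest mean of them, with values of 8.57, 9.55 and 9.57. Over the 9 markers the median of array 3 minus the mean of arrays 1 and 2 was 0.00 log2. By that difference 4 were higher, 1 was lower and 4 were equal. The part of these markers in the values of the set was not tested. Without array 3 there were 20 genes above the level (beside 40.2% of all named genes) and 11 under it (beside 45.6%), and the genes that joined those below were Aldoc, Pgam2, Pklr and P4ha2, all but Pklr with equal values in arrays 1 and 2.

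**Figure D4:**
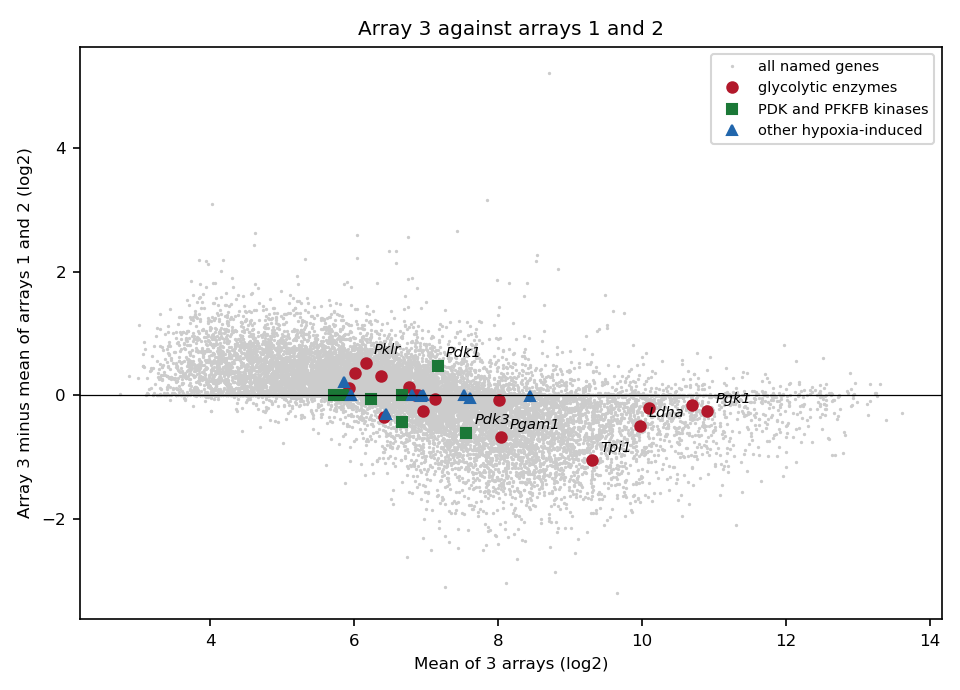
Array 3 minus the mean of arrays 1 and 2 (vertical axis, log2) against the mean of 3 arrays (horizontal axis, log2) for the 33 genes of the set, by class, over all named genes in grey. Tpi1 is the lowest of the set at -1.05, and the 7 genes of the set other than Hk1 with means of at least 8 log2 lie under 0, as do 76.5% of named genes there. Hk1 is drawn at the mean of probe sets at 0.21 and -0.63.

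**Figure D5:**
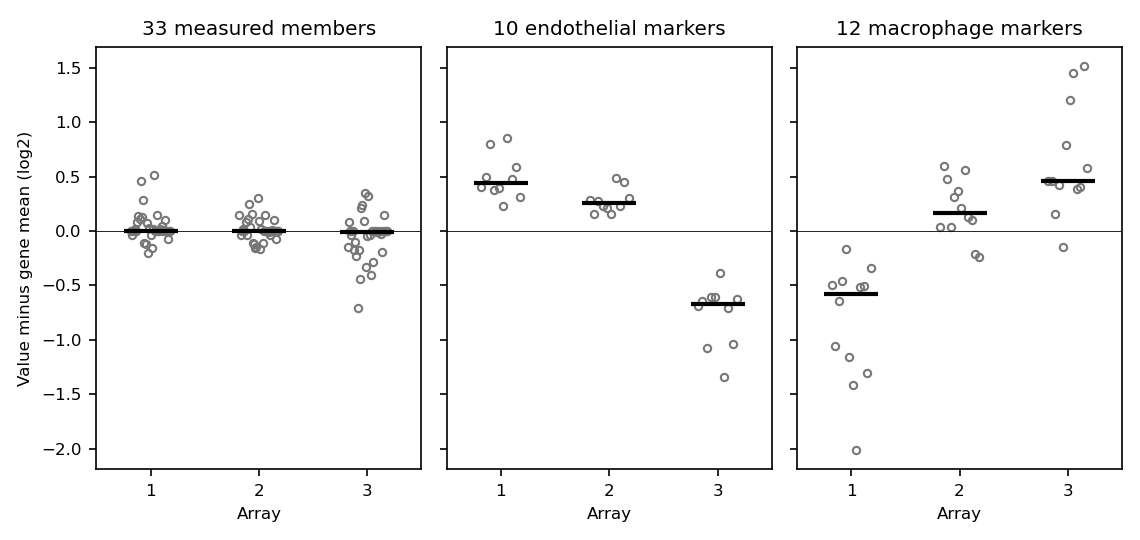
Value minus the gene's mean over 3 arrays (vertical axis, log2) in each array for the 33 genes of the set, 10 endothelial markers and 12 macrophage markers, with 1 circle per gene and a bar at the median. The medians of the set stay within 0.01 of 0, those of the endothelial markers are 0.44, 0.25 and -0.67, and those of the macrophage markers are -0.58, 0.17 and 0.46 in arrays 1, 2 and 3.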

How the data were processed

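The deposited table holds log2 values of 3 Affymetrix Mouse Gene ST arrays, made by the authors from RNA amplified in 1 round with the NuGEN WT-Ovation Pico system. Affymetrix Expression Console stands in the submitters' processing notes with no version. The study names RMA normalization in GeneSpring GX for its own analysis, and whether this table was made in that way is not stated. No depth applies to arrays, so precision rests on their number. Values were used as deposited.

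Of the 35557 probe sets, the platform annotation lists 23410, of which 21789 have exactly 1 symbol and 1621 several. Symbols were updated through gene IDs in RefSeq (21698 matched). Probe sets were tested with limma 3.58.1 in R 4.3.3 (intercept-only fit, eBayes, one-sided in each direction against 6.64 log2, Benjamini-Hochberg over all probe sets, threshold 0.05). A gene counted as above on the strength of 1 probe set, and as below only where every probe set was below. Gene values are means over probe sets, and summed levels are on the linear scale. The script was tested on simulated data, where a pass was required only with independent errors. A simulation with ties was run without such a requirement, so this test does not show that the calls hold under ties. The members and lists were chosen with earlier results of these data known. Named from each list of a related pathway were its first 3 measured genes and those on a side with 5 or fewer. Other genes of these lists are marked as chosen after their values were seen. The marker lists are given as counts and sums, with Cdh5 as an example and Hbb-y chosen after its values were seen. Alternatives covered the spread, level, normalization, multiple testing, probe sets and replicates. Figures and counts used Python 3.11.15, pandas 2.3.3, numpy 2.4.6 and matplotlib 3.10.9.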

Additional observations from a re-analysis of the deposited data

How the results depend on the processing

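The counts of 17 genes above and 7 below the level of 100 changed by more than 1.5 times in few settings. Above the level were 11 with the pooled spread (beside 36% of all named genes), 32 at a level of 50 (71.4%) and 6 at a level of 200 (16.2%). Below it were 0 at a level of 50 (limma, also 0 at an unadjusted p under 0.05, beside 13.1% of all named genes), 23 at a level of 200 (66.6%), and 11 where all 3 arrays had to lie under 100 (45.3%). Where a probe set instead had to reach 100 in all 3 arrays, the rule nearest to the study's filter, 20 genes were above (47.9%). Leaving out each array in turn gave 14 to 20 genes above and 5 to 11 below, the 11 without array 3. Of all named genes 27.7%, 25.3% and 40.2% were then above without array 1, 2 and 3, and 26.8%, 25.9% and 45.6% were below. With each array's own 95th percentile of olfactory and vomeronasal receptor genes as the level, 16 were above (beside 43.3% of all named genes) and 6 below (31.8%). Quantile normalization gave 18 above and 8 below (beside 41.9% and 41.3% of all named genes). A shift to the common median gave the same counts (beside 41.8% each way). Either setting changed 4 calls, with 1 above lost (Pfkfb3), 2 above gained and 1 below gained. An intensity trend in eBayes or gene means changed no call. Counting a gene above only if all of its probe sets were, an alternative chosen after seeing the data, gave 14 (beside 40.0%). Hk1, Pgam1 and Bnip3 each held a probe set that did not pass. Leaving out the Hk1 probe set whose accession it shares with Rpl17, also chosen after seeing the data, gave 16 (beside 41.6%).

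Moving the level by 1 log2 turned the sign for genes near it, by construction. At a level of 50 the mean minus the level was 0.29 for Hk2, 0.78 for Aldoc, 0.73 for Pgam2, 0.37 for Eno2, 0.58 for Pdk2, 0.08 for Pdk4, 0.21 for Pfkfb4, 0.80 for P4ha2, 0.32 for Car9 and 0.22 for Car12. At a level of 200 it was -0.80 for Hk3, -0.51 for Pfkl, -0.76 for Pfkm, -0.69 for Pfkp, -0.89 for Eno3, -0.49 for Pdk1, -0.99 for Pfkfb2, -0.98 for Pfkfb3, -0.71 for Bnip3, -0.11 for Ndrg1, -0.04 for P4ha1, -0.83 for Ddit4 and -0.69 for Mxi1. The median of 6.89 log2 and the median deviations of the arrays moved by less than the spread between arrays. No paired analysis was possible because the series holds a single group.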

Other observations

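Several genes outside the set had values far over the level in the hypoxia lists, and they were chosen after their values were seen. Mif, a cytokine gene, had values of 12.36, 12.01 and 11.36 in arrays 1, 2 and 3. Fam162a, a mitochondrial protein gene, had 10.66, 10.75 and 10.66, and Higd1a, which acts on the respiratory chain, had 9.75, 9.72 and 9.71. Both varied by less than 0.1 log2 between arrays. Max, the partner of Mxi1, had 11.22, 11.20 and 9.27, with array 3 standing apart. Car8, a carbonic anhydrase relative without enzyme activity, had 10.18, 10.18 and 9.51, whereas Car9 and Car12 were below the level.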
